A study of Homo sapiens with 6 samples.

Results

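SAMD9 and SAMD9L are neighbouring, related human genes for large cytoplasmic antiviral proteins, and their transcripts were followed by RNA sequencing in pancreatic cancer cells with reduced METTL13. The pair comprises 2 of the 16617 genes measured. The rows were found by gene symbol, and the pair was chosen by its lower average TPM and read count in this same comparison, so its fold changes are a description and are not used as evidence of an effect. There were 6 libraries in 2 groups. The 3 sgMETTL13 libraries came from T3M4 cells given a METTL13-directed guide RNA, a genotype that the labels call METTL13 knockdown. The 3 sgControl libraries came from T3M4 cells given a control guide RNA and are labelled wild type. T3M4 is an established human pancreatic ductal adenocarcinoma line, both groups grew in the same serum-supplemented medium, and the sources used here do not say whether the knockdown cells are a clone or a pool. METTL13 methylates the translation elongation factor eEF1A.

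SAMD9 and SAMD9L each carry an N-terminal sterile alpha motif, a protein interaction module, followed by a nuclease-like domain and an ATPase-like domain. Both restrict poxviruses, which encode dedicated antagonists against them, and when activated they cleave phenylalanine tRNA and so slow elongation by the ribosome. Interferon induces both genes through ISGF3, a transcription factor complex that binds interferon-stimulated response elements (ISREs). Germline activating variants are known to cause the MIRAGE syndrome (SAMD9) and ataxia-pancytopenia syndrome (SAMD9L). The chromosome arm that carries the pair is often lost in myeloid malignancy. Mice have Samd9l but lack Samd9.

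Both genes lie on the minus strand of chromosome 7 in GRCh38 as annotated by GENCODE 29, SAMD9 (Entrez gene 54809) at chr7:93099513-93118023 and SAMD9L (Entrez gene 219285) at chr7:93130055-93148369. The 2 genes are 12.03 kb apart, and the basic GENCODE set has no other gene overlapping them or lying between them. The full-length coding sequence sits in 1 exon in each gene and measures 4767 bases in SAMD9 and 4752 in SAMD9L without the stop codon. In a global alignment 72.2% of the aligned coding bases were identical. The longest identical run of the coding sequences was 32 bases, and the annotated transcripts shared 2 words of 31 bases and 0 of 50 bases. Both transcripts are rich in A and U, with 36.0% GC in SAMD9 and 38.5% in SAMD9L, against a median of 49.6% over the 16211 genes with a matched transcript.

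The promoters are shown for a short run of bases that both hold. They run from 250 bases before to 50 bases after the RefSeq transcription start (GRCh38.p14, minus strand, 5′ to 3′), at chr7:93117930-93118229 for SAMD9 and chr7:93148336-93148635 for SAMD9L. Capitals mark a run of 10 bases found in both, which was picked after the promoters had been compared and is 1 of 3 shared runs of that length.
SAMD9: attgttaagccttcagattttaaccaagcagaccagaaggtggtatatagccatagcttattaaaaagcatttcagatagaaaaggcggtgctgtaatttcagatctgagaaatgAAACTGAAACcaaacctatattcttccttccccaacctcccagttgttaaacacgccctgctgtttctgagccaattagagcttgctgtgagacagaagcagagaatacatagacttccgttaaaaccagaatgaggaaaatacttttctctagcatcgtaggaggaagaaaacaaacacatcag
SAMD9L: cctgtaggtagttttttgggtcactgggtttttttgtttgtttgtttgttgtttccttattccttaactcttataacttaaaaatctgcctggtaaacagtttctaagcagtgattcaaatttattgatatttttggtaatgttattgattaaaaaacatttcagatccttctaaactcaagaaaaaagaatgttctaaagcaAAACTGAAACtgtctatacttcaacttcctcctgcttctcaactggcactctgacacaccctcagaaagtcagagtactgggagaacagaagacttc
The run starts at position -135 from the transcription start in SAMD9 and at -47 in SAMD9L, and reads in the direction of the gene in both.

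The data are group averages deposited by the authors, so values of single libraries are not analysed here and no spread between libraries can be shown. Average reads summed to 15247500 per sgMETTL13 library and 15240866 per sgControl library, and the depth of each library is unknown. The precision of a fold change is given as an implied standard error, which is the size of the deposited log2 value over the normal quantile that its p-value corresponds to. A gene is called where the adjusted p in the authors' deposited table is under 0.05, which holds for 632 of 16617 genes (3.80%), of which 453 (2.73%) were higher and 179 (1.08%) lower in sgMETTL13 cells. The targeted gene went with its labels, as METTL13 averaged 5.63 TPM in sgMETTL13 and 39.9 TPM in sgControl cells in the authors' deposited table. Epithelial keratins KRT8, KRT18 and KRT19 were between 1025 and 2107 TPM in both groups in the authors' deposited table. Of 9 duct carcinoma markers the duct transcription factor gene SOX9 (-0.28) and the mucin gene MUC1 (-0.46) were called lower in the authors' deposited table (log2 fold changes). Of 13 markers of blood, stromal, endothelial, acinar and endocrine cells, 7 are listed, and the markers above 2 TPM were CD68 and COL1A1, neither of them called.

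SAMD9, the abundant member, had 38.7 TPM in sgMETTL13 cells, against 61.6 TPM in sgControl cells, in the authors' deposited table. That table gives an average of 2070 estimated reads per library in sgMETTL13 and 3248.33 in sgControl. SAMD9 transcript in the knockdown cells was therefore at 62.8% of the control TPM. The log2 fold change in the authors' deposited table was -0.60, or 0.661-fold (implied standard error 0.063; implied 95% interval -0.72 to -0.47). In bulk RNA, fewer cells that express a gene and less of its RNA per cell cannot be told apart.

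SAMD9L, the scarce member, had 1.72 TPM in sgMETTL13 cells, against 4.65 TPM in sgControl cells, in the authors' deposited table. It averaged 92 estimated reads per library in sgMETTL13 and 245.67 in sgControl in the same deposited table. SAMD9L was thus at 37.0% of the control TPM in the knockdown cells. The log2 fold change in the authors' deposited table was -1.36, or 0.388-fold (implied standard error 0.168; implied 95% interval -1.69 to -1.04). Ordered by fold change, SAMD9L held rank 3 and SAMD9 rank 41 of the 179 genes called lower in the authors' deposited table. Both members carried the call of the authors' deposited table, beside 1.08% of all genes called lower, from which nothing is read because that comparison chose them.

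**Figure D1:**
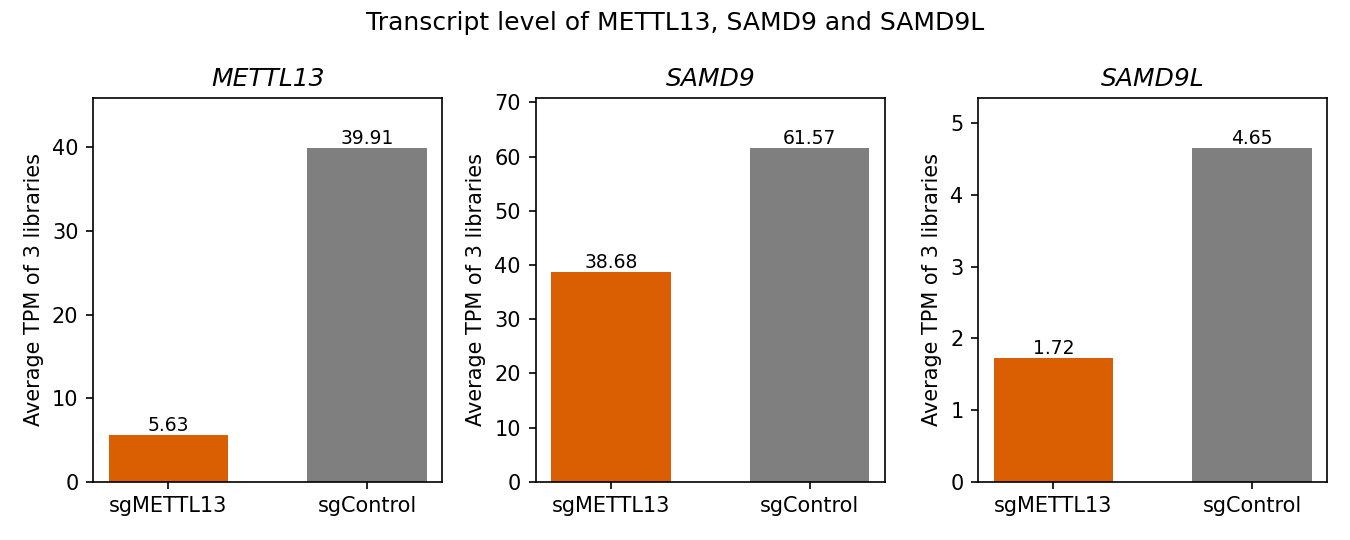
Average TPM of METTL13, SAMD9 and SAMD9L in sgMETTL13 cells (left bar of each panel) and sgControl cells (right bar), each bar the authors' average of 3 libraries with no error available. SAMD9 stood at 38.7 TPM in sgMETTL13 and 61.6 TPM in sgControl cells and SAMD9L at 1.72 TPM in sgMETTL13 and 4.65 TPM in sgControl cells, on axes of different height that start at 0.

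The implied errors are close to those of other genes at the same depth. For SAMD9 the implied standard error of 0.063 compares with a median of 0.065 among genes within 1.2-fold of its read count, and for SAMD9L 0.168 compares with 0.158. Summed over the 3 libraries of a group, SAMD9L rested on 276 reads in sgMETTL13 (exact Poisson 95% interval from 244 to 311) and on 737 reads in sgControl (685 to 792). SAMD9 rested on 6210 reads in sgMETTL13 (6056 to 6366) and 9745 in sgControl (9552 to 9940). These intervals cover counting error only. The implied standard error was 1.65 times the counting error for SAMD9L and 2.71 times for SAMD9. Both members gave close to 53 reads per TPM in each group, so the estimated lengths behind their TPM values are alike and the 2 levels can be set side by side.

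SAMD9 transcript outnumbered SAMD9L in both groups, by a higher ratio in sgMETTL13 cells. The ratio of SAMD9 to SAMD9L average TPM was 22.4 in sgMETTL13 and 13.2 in sgControl cells. Together the pair made up 40.4 TPM in sgMETTL13 and 66.2 TPM in sgControl cells, of which SAMD9L was 4.27% in sgMETTL13 and 7.03% in sgControl. The log2 fold change of SAMD9L was lower than that of SAMD9 by a difference of -0.77, with an implied standard error of 0.179 if the members are taken as independent (implied 95% interval from -1.12 to -0.42). Genes of the same libraries may share errors, and the difference was not tested. In absolute terms 22.9 TPM separated the groups for SAMD9 and 2.93 TPM for SAMD9L.

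**Figure D2:**
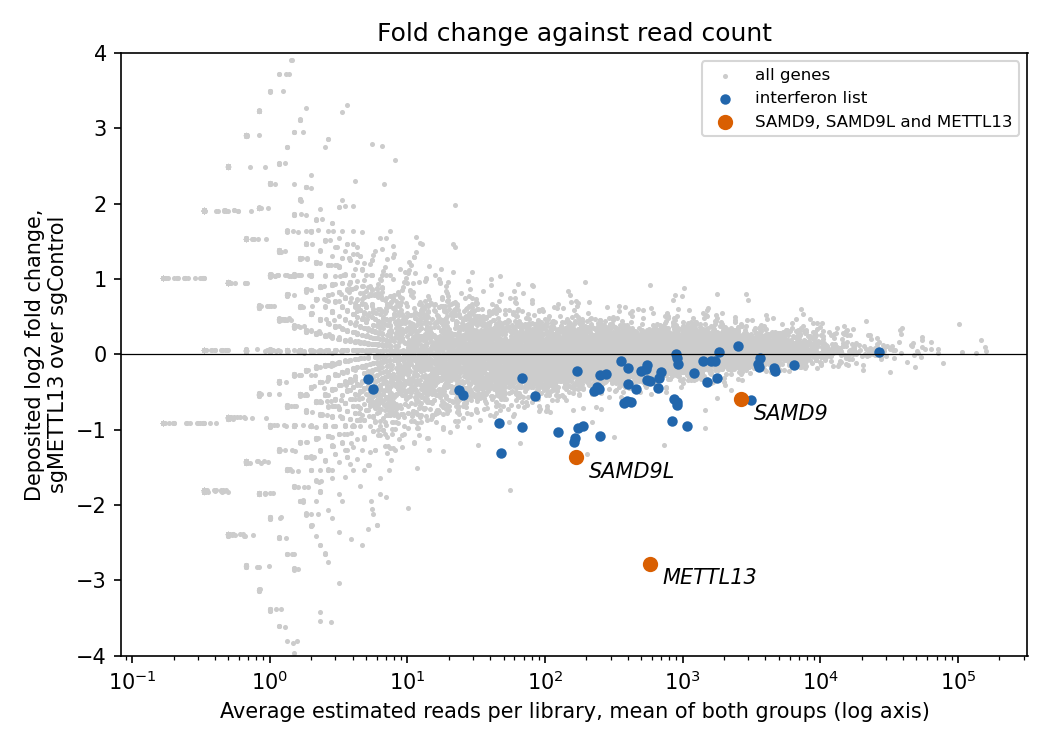
Deposited log2 fold change of sgMETTL13 over sgControl against average estimated reads per library (mean of both groups, log axis) for all genes (grey), the interferon-stimulated list (blue) and SAMD9, SAMD9L and METTL13 (orange). SAMD9 lies at -0.60 and SAMD9L at -1.36, and 16 genes of low count lie beyond the axis limit of 4 on the log2 scale.

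By rule, the genes with at least the median read count (205 reads) and the fold change nearest to each member were listed, over the 2 group averages. Nearest to SAMD9 were the oligoadenylate synthetase genes OAS1 (-0.59) and OAS3 (-0.60), DTL, which targets a replication licensing factor for degradation (-0.59), complement C3 (-0.58) and the interferon-induced IFI44 (-0.62), all called lower in the authors' deposited table. Among genes at or above that read count the closest fold change to SAMD9L was 0.165 away on the log2 scale, against 0.0037 for SAMD9. TMEM189-UBE2V1, a read-through gene that shares reads with its parts, was at -1.20 with an implied standard error of 1.95 and was not called in the authors' deposited table. The mucin MUC16 (-1.10), the RNA-binding IFIT1 (-1.09), the transglutaminase TGM2 (-0.97) and the GTPase MX1 (-0.96) followed, all called lower in the authors' deposited table. SAMD9L itself averaged 168.8 reads, under the limit of 205. Some genes under that limit were closer to SAMD9L, such as MUC4 (-1.32, 202.7 reads) and RSAD2 (-1.31, 47.7 reads), both called lower.

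Among interferon-stimulated genes SAMD9L stood at the end of the range and SAMD9 inside it. A list of 60 such genes that leaves out the pair had 27 called lower (45.0%) and 0 called higher (0 also at an unadjusted p under 0.05) in the authors' deposited table, against 1.08% and 2.73% of all genes. Its median log2 fold change was -0.35, against 0.0014 over all genes. None of the 60 had a fold change below that of SAMD9L, and 17 had one below that of SAMD9. Next to SAMD9L were RSAD2, which makes an antiviral nucleotide (-1.31, implied standard error 0.316), and MX2, which restricts retroviruses and herpesviruses (-1.16, implied standard error 0.181), in the authors' deposited table. The implied intervals of both overlap that of SAMD9L. Of the list members with the smallest adjusted p in the authors' deposited table, the RNA sensor DDX58 was at -0.67, IFIT1 at -1.09, OAS2 at -0.89 and OASL at -0.63.

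The members sat at different levels within that list. In sgMETTL13 as in sgControl cells SAMD9 was the 22nd most abundant of the 62 genes, while SAMD9L was the 56th in sgMETTL13 and the 54th in sgControl. The next gene below SAMD9 in sgControl cells was STAT2 at 49.7 TPM and the next above was TRIM21, a ubiquitin ligase that binds antibodies, at 63.3 TPM, both in the authors' deposited table. Across the 62 genes the fold change went with the level (Spearman's rho 0.641 with mean TPM, a description across genes that share libraries and an interferon response). Of 20 genes with a mean under 10 TPM 11 were called lower, SAMD9L among them. Between 10 and 100 TPM 18 of 34 were called lower, with SAMD9 among them. At 100 TPM or more 0 of 8 were called. The scramblase gene PLSCR1 (-0.19) and the secreted glycoprotein gene LGALS3BP (-0.14) had an unadjusted p under 0.05 in the authors' deposited table, and LGALS3BP was called lower (-0.23, adjusted p = 0.0115) once a trend in transcript GC content and length was removed. The others included the membrane protein genes IFITM3 (0.03), BST2 (0.12) and IFITM1 (-0.13) and the ubiquitin-like modifier gene ISG15 (-0.08) in the authors' deposited table. With that trend removed, 9 of the 20 genes under 10 TPM were called lower. So were 17 of the 34 between 10 and 100 TPM and 1 of the 8 at 100 TPM or more.

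**Figure D3:**
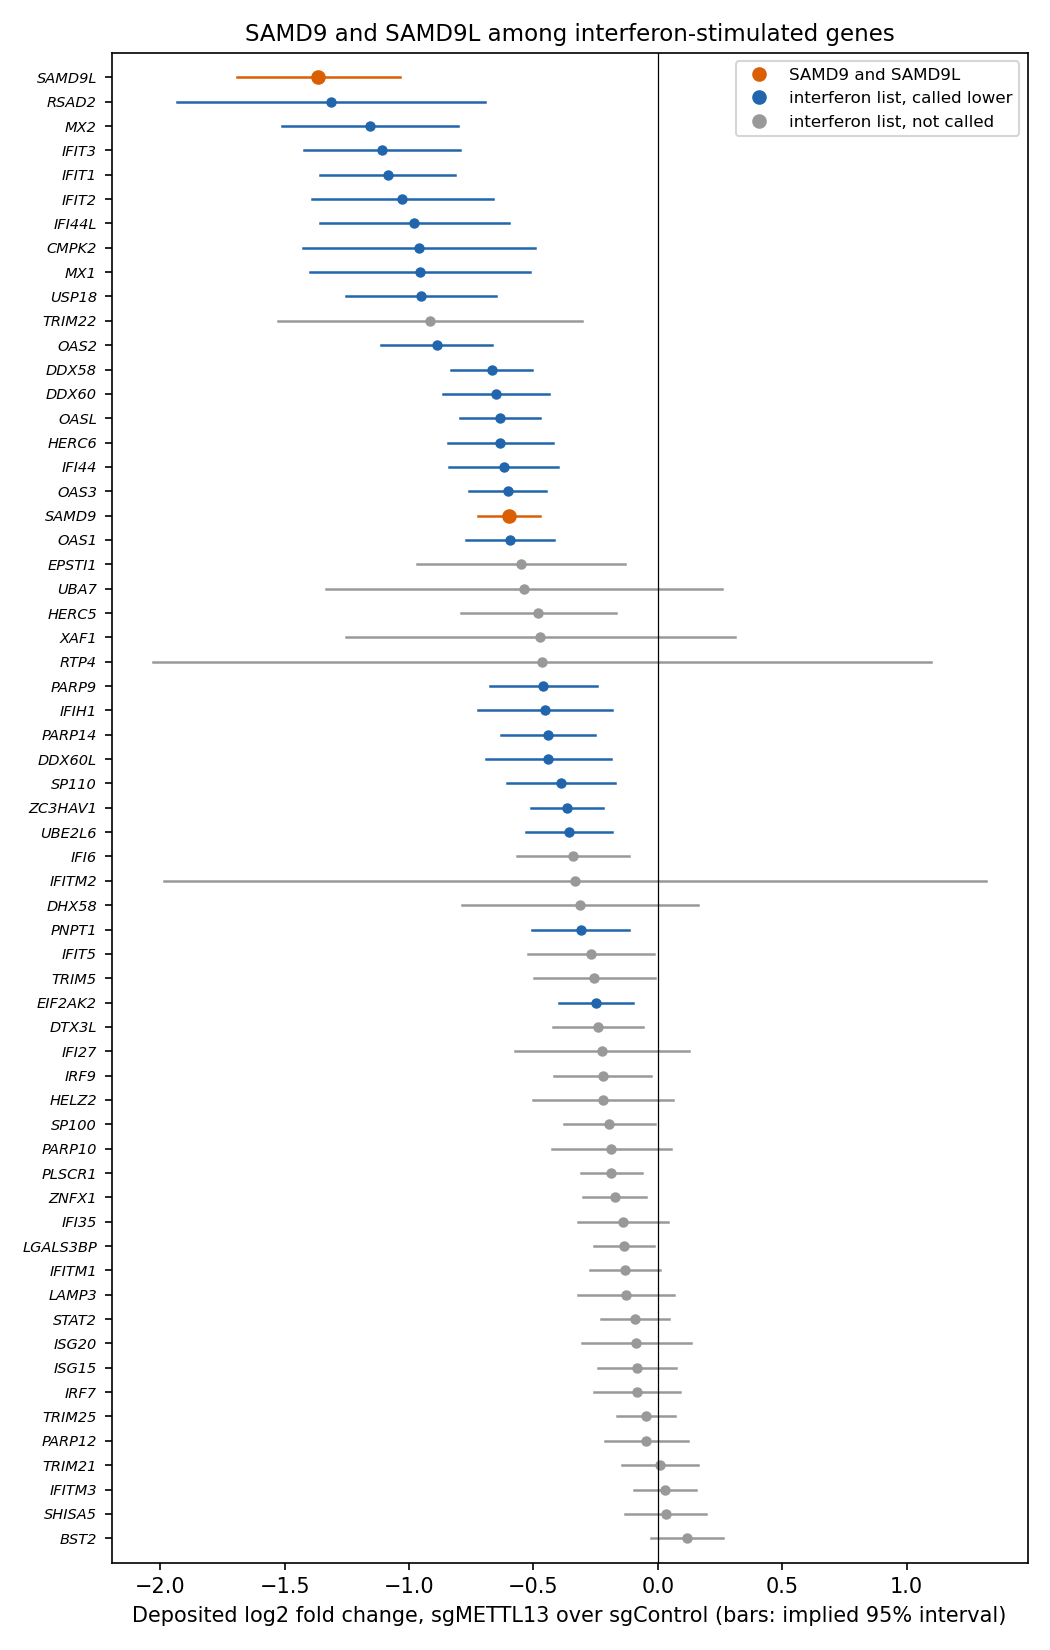
Deposited log2 fold change with implied 95% interval for SAMD9 and SAMD9L (orange) and 59 of the 60 genes of the interferon-stimulated list (blue where called lower, grey where not called), ordered by fold change with the lowest at the top. SAMD9L at -1.36 is the lowest of the 61 drawn, and SAMD9 at -0.60 sits beside OAS1 and OAS3.

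Genes of interferon signalling, inhibitors of it among them, were called in both directions. Of 27 ligand, receptor and signalling genes, 3 were called higher (11.1%) and 2 lower (7.41%) in the authors' deposited table. Over all genes 2.73% were called higher and 1.08% lower, and the shares of so short a list were not tested. At an unadjusted p under 0.05 there were 5 higher and 3 lower. The median log2 fold change of the 27 genes was -0.03. Transcripts of the ligand genes were scarce. In the authors' deposited table IFNB1 had 0.107 TPM in sgMETTL13 and 0.053 TPM in sgControl cells, IFNL1 had 0.657 TPM in sgMETTL13 and 0.390 TPM in sgControl, and IFNE had 1.75 TPM in sgMETTL13 and 2.21 TPM in sgControl. The receptor chains IFNAR1 (0.03) and IFNAR2 (-0.04) of type I interferon were not called in the authors' deposited table. STAT2 (-0.09) and IRF9 (-0.22), which encode subunits of ISGF3, were not called in the authors' deposited table. USP18, an inhibitor of the type I receptor that interferon itself induces, was lower (-0.95), and SOCS1 (0.63) and SOCS3 (0.44), which inhibit JAK kinases, were higher in the authors' deposited table. SOCS1 had 50.9 TPM in sgMETTL13 and 34.6 TPM in sgControl cells in the authors' deposited table. IFNGR2, a chain of the interferon gamma receptor, was also called higher (0.31) in the authors' deposited table. SAMD9 is also known as a gene that responds to tumour necrosis factor. Of 17 genes of the TNF and NF-kB response 2 were called higher, RELA (0.26) and RELB (0.29), and 0 lower in the authors' deposited table. That is 11.8% higher, against 2.73% of all genes, and 0% lower, against 1.08%. At an unadjusted p under 0.05 there were 6 higher and 0 lower. With a smooth trend of fold change in transcript GC content and length removed, an alternative chosen after seeing the data, SOCS3 (adjusted p = 0.121) and RELB (adjusted p = 0.371) were no longer called.

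Among other antiviral factors that block translation or cut RNA, calls went both ways. Of 18 measured genes 3 were called lower (16.7%, against 1.08% of all genes), IFIT1, the antiviral zinc-finger protein gene ZC3HAV1 (-0.37) and the double-stranded RNA kinase gene EIF2AK2 (-0.25), and 1 higher (5.56%, against 2.73% of all genes), the RNase gene ZC3H12A (0.26), in the authors' deposited table. At an unadjusted p under 0.05 there were 8 lower and 2 higher. With the GC content and length trend removed, EIF2AK2 (adjusted p = 0.273) and ZC3H12A (adjusted p = 0.414) were no longer called. The 3 lower genes are also in the interferon-stimulated list. The tRNA nuclease genes SLFN11 (-0.11) and SLFN13 (-0.54) were not called in the authors' deposited table. Of 15 genes for enzymes that charge, trim or modify tRNA, chosen for phenylalanine tRNA, the substrate of the pair, 0 were called in the authors' deposited table (unadjusted p under 0.05 in 2 genes). FARSA and FARSB, which encode the subunits of its cytosolic synthetase, were at 0.05 and -0.20 on the log2 scale in that deposited table. Of 13 elongation factor and eEF methyltransferase genes METTL13 was the 1 called in the authors' deposited table.

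Genes that resemble the pair in name, act with it or lie on its chromosome arm are given beside all genes, of which 3.80% were called. These lists are too short for their shares to be compared with that of all genes. Of 12 measured genes named SAMD, which share the sterile alpha motif and not the rest of the protein, 1 was called higher, the RNA-binding SAMD4A (0.52), and 0 lower in the authors' deposited table. Among 16 genes of endosome fusion, a process in which the pair has been implicated, 0 were called (unadjusted p under 0.05 in 5 genes), and RGL2, which encodes a reported partner of SAMD9, was at 0.24 in the authors' deposited table. Of 8 genes listed for myeloid disease on the same chromosome arm as the pair, the neighbour CDK6 among them, 0 were called in the authors' deposited table (unadjusted p under 0.05 in 2 genes).

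The genes around the pair on chromosome 7 were not called. Of the 5 protein-coding genes on either side, 9 of 10 are listed in the authors' deposited table and 0 were called, with 1 at an unadjusted p under 0.05. The cell cycle kinase gene CDK6, the nearest on 1 side, had 56.0 TPM in sgMETTL13 and 60.8 TPM in sgControl cells, with -0.04 as log2 fold change (implied interval -0.17 to 0.08) in the authors' deposited table. On the other side the endosomal tether gene VPS50 had 23.1 TPM in sgMETTL13 and 25.6 TPM in sgControl cells, with -0.05 as log2 fold change in the authors' deposited table (implied interval -0.24 to 0.13). HEPACAM2, CALCR and GNGT1 were at or below 1.33 reads per library in both groups in the authors' deposited table.

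**Figure D4:**
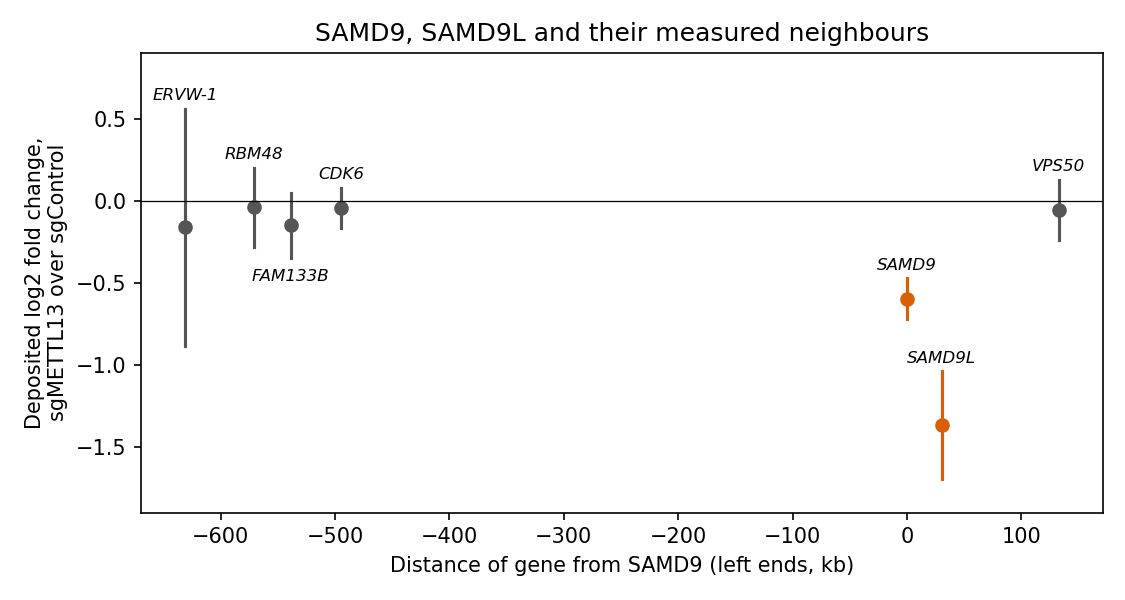
Deposited log2 fold change with implied 95% interval against distance from SAMD9 (kb between the left ends of the genes) for SAMD9 and SAMD9L (orange) and 5 neighbouring protein-coding genes with over 3 average reads (grey). SAMD9 at -0.60 and SAMD9L at -1.36 lie below CDK6 (-0.04) and VPS50 (-0.05), the nearest genes above 3 reads on either side.

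The promoters of the pair share letters with those of the interferon list. An ISRE-type repeat was searched as 2 copies of GAAA with any 2 bases between them, on both strands. It was found in SAMD9, at position -136 and overlapping the capitals above, and the SAMD9L window held no match. Of all RefSeq promoters, 1255 of 35116 (3.57%) hold it, as do 28 of 46 (60.9%) of those of the interferon list. By call in the authors' deposited table, 21 of 147 promoters of genes called lower (14.3%, SAMD9 among them), 11 of 368 called higher (2.99%) and 363 of 12589 not called (2.88%) hold the repeat. Outside the interferon list and the pair, 9 of 124 promoters of genes called lower (7.26%) hold it. Within the interferon list it occurs in 11 of 21 genes called lower (52.4%) and 17 of 25 others (68.0%). Neither promoter of the pair holds the STAT motif TTCNNNGAA or the TATA motif TATAAA on either strand, which occur in 7.66% and 11.5% of all promoters.

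The 10-base run common to SAMD9 and SAMD9L occurs in 55 of 35116 promoters (0.157%). The promoters of 21 measured genes hold it, the pair included, whose presence the choice of the run fixed. Of the other 19 genes, 2 were called lower, DDX60 and IFI44, and 17 were not called in the authors' deposited table. Over all genes 1.08% were called lower, and over the interferon list 45.0%. Of these 19, 8 are in the interferon list, DDX60 and IFI44 among them. Stretches of 30 bases are shown for list members that differ in call, DDX60 and IFI44 having been called lower and IFITM1 and BST2 not called, the last 2 chosen after their values were seen.
SAMD9: ctgagaaatgAAACTGAAACcaaacctata
SAMD9L: ttctaaagcaAAACTGAAACtgtctatact
DDX60: tgctgaagggAAACTGAAACctaagtgctt
IFI44: cagagaaaggAAACTGAAACtcagtgtgcc
IFITM1: cacttctgagAAACTGAAACgacaggggaa
BST2: cctttctgggAAACTGAAACtgaaaaccta
These lie at chr7:93118095-93118124, chr7:93148413-93148442, chr4:168318820-168318849, chr1:78649760-78649789, chr11:314025-314054 and chr19:17405740-17405769 (GRCh38.p14), on the minus strand except for IFITM1, and the IFI44 stretch is read against the direction of its gene. DDX60, an RNA helicase gene, had 6.03 TPM in sgMETTL13 and 9.98 TPM in sgControl cells in the authors' deposited table. IFI44, which encodes an interferon-induced cytoplasmic protein, had 19.8 TPM in sgMETTL13 and 30.5 TPM in sgControl cells in that table. BST2, the tetherin that holds budding virions, had 349.9 TPM in sgMETTL13 and 339.1 TPM in sgControl cells in the authors' deposited table and holds the same run. The presence of these letters is a description of the sequence, and binding was not measured.

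**Figure D5:**
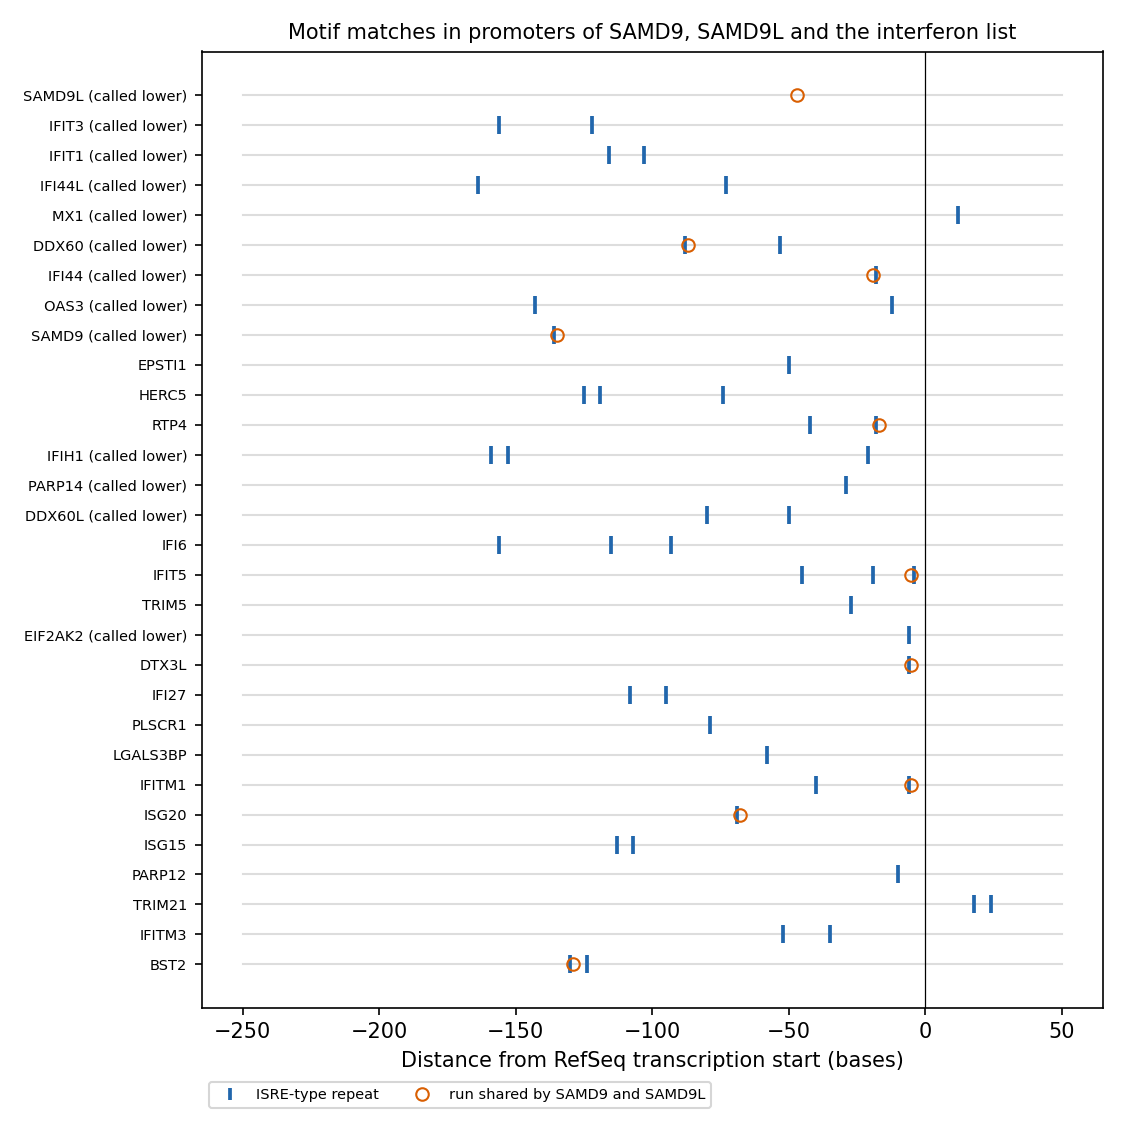
Positions of the ISRE-type repeat (blue ticks) and of the 10-base run shared by SAMD9 and SAMD9L (orange circles), in bases from the RefSeq transcription start, for promoters of the pair and of the interferon list that hold either, ordered by fold change with the lowest at the top. The run lies at -135 in SAMD9 and -47 in SAMD9L, and matches occur both in genes called lower and in genes not called, such as BST2.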

How the data were processed

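Messenger RNA of T3M4 cells was sequenced in 3 sgMETTL13 and 3 sgControl libraries, grouped by the titles, and nothing says that replicates came from separate cultures, so p-values measure the spread between these libraries, which may be technical. The submitters' processing notes name DESeq2, RSEM 1.2.12, HISAT2 2.0.4 and Bowtie2 2.2.5, with the builds hg38 and GRCh38.p12, and give no role or order. Per the file headers the deposited table holds for each group the average read count, TPM and FPKM as made by the authors. The deposited read counts are expected counts (reads divided between genes), as for 21.4% of genes the average over 3 libraries is no whole sum (tolerance 0.005). It also holds the authors' log2 ratio, its p-value and its q-value (called adjusted p). For abundant genes the deposited log2 fold change equals the log2 ratio of average reads plus 0.052 (SD 0.0007), a scaling between groups.

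With group averages alone no count model across libraries was fitted. The planned description of the authors' comparison was used, with an adjusted p under 0.05 over all 16617 genes. Members and gene lists were chosen with earlier results of these data known. Genes named are the pair, METTL13, the neighbours, those nearest in fold change, and from each list up to 4 called members with the smallest adjusted p (all of 5 or fewer calls); other names were chosen after their values were seen, and a few genes that this rule names are not reported here. Coordinates and transcripts come from GENCODE 29 (GRCh38) and promoters from RefSeq (GRCh38.p14), matched by Entrez ID for 13104 genes; GC content was matched for 97.6%. Alignment used a match score of 2, a mismatch penalty of 1 and gap penalties of 5 and 1. Only the implied standard error and the calls by adjusted p were run on simulated data. Its errors were drawn as normal, so the error formula holds there by construction. Python 3.11.15, biopython 1.88, scipy 1.17.1, numpy 2.4.6, matplotlib 3.10.9, patsy 1.0.2 and pandas 2.3.3 were used. Alternatives were other thresholds, adjustments, units and a filter on low counts, and, added after the data were seen, removal of a smooth trend in transcript GC content and length weighted by the implied standard error.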

Additional observations from a re-analysis of the deposited data

How the results depend on the processing

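SAMD9 and SAMD9L kept their direction under every alternative run. These alternatives rescale or shift the same group averages that chose the pair, so they are no independent check of that direction. As a ratio of average TPM the log2 value of SAMD9 was -0.67, which differs from the deposited value by more than its implied standard error, and with 1 added to the TPM that of SAMD9L was -1.05, since the pseudocount shrinks low levels. With a smooth trend of fold change in GC content and length removed, an alternative chosen after seeing the data, the values were -0.54 for SAMD9 and -1.30 for SAMD9L. The 179 genes called lower became 104 at an adjusted p under 0.01, 269 under 0.1 and 44 with Bonferroni adjustment. The 453 called higher became 136 with Bonferroni adjustment and 271 with the trend removed, beside 168 lower. With the trend removed 4 of the 27 lower calls of the interferon list were lost and 2 members gained one. The 27 lower calls of the interferon list became 15 with Bonferroni adjustment. SAMD9L lies under the filter at 205 mean reads and gets no call there. No paired analysis was possible because the table holds group averages, and for the same reason no library could be left out. Depth limits statements on genes of few reads, such as HEPACAM2 and IFNB1.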
